A study of Danio rerio with 3 samples.

Results

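Glycinergic neurons of the lesioned larval zebrafish spinal cord were chosen by their counts of marker genes. A cell barcode had to carry at least 1 unique molecular identifier (UMI, a tag that counts a captured RNA molecule once) of *slc6a5*, the gene of the glycine transporter of glycine-releasing neurons. It also had to carry a UMI of at least 3 of 8 pan-neuronal genes (*elavl3*, *elavl4*, *snap25a*, *snap25b*, *stmn1b*, *gng3*, *sncb* and *stxbp1a*) and none of *slc17a6a* or *slc17a6b* (vesicular glutamate transporters), *chata* (acetylcholine synthesis) or *mnx1* (a motor neuron transcription factor). Barcodes with fewer than 200 genes, with UMIs outside 500 to 50000 or with 20% or more mitochondrial UMIs were left out. Of 40973 barcodes kept, 5347 carried 3 or more pan-neuronal genes, and 1179 of these gated neurons met the whole rule. The values of the genes that the rule reads are given as a description of the cells chosen.

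The study asked how loss of Sema4ab, a semaphorin expressed by microglia, alters the tissue around a spinal lesion. In the gSema4ab group, embryos were injected at the single-cell stage with a highly active guide RNA (haCR) against *sema4ab*, which gives somatic mutants and not a stable line, and the gControl group received a control guide RNA. All larvae were lesioned at 3 days post-fertilization (dpf), and tissue around the lesion was taken at 4 dpf, 1 day after the lesion, from 50 larvae pooled per library, so no library came from unlesioned larvae. The labels call the tissue spinal cord and the sorted cells viable, and the series' text also mentions GFP-positive cells. gSema4ab was run as 2 technical repeats (gSema4abR1 and gSema4abR2) and gControl as 1 library. With 1 pool per condition there was no test between conditions: the intervals below are exact 95% intervals that cover counting error only, and the difference between the repeats shows technical spread but not the spread between pools.

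Glycine is the main fast inhibitory transmitter of the spinal cord, and many spinal inhibitory neurons release it together with GABA through a shared vesicular transporter. These neurons arise from several progenitor domains, and each domain leaves its daughters with typical transcription factors. Engrailed marks V1 neurons, and Gata and Tal factors mark V2b neurons and the cerebrospinal fluid-contacting Kolmer-Agduhr (KA) neurons. Dmrt3 and Wt1 mark dI6 neurons, Ptf1a marks dorsal classes, and Lbx1 marks dorsal classes and dI6 neurons. In swimming larvae spinal inhibitory neurons shape the speed of the locomotor rhythm and the alternation between the left and right sides.

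The conditions differed by the guide RNA, so its target is shown here as the study's supplementary table lists it, 5′ to 3′, in lower case throughout:
sema4ab gRNA target: accatggttacaggacccag
The 3′ tags counted here need not cover that site, so the *sema4ab* count does not check the mutation. The paper looked at the few reads of these libraries that did cover it. It reported intact sequence in gControl and none in either gSema4ab repeat. In glycinergic neurons *sema4ab* had 51, 38 and 62 UMIs in gSema4abR1, gSema4abR2 and gControl, or 24.9, 19.4 and 29.999 CPM (UMIs of a gene per 1000000 UMIs of the same cells). The plexin genes *plxnb1a* and *plxnb1b*, of the receptor family that binds class 4 semaphorins, were sparse as well. *plxnb1a* was found in 6.79% and *plxnb1b* in 4.92% of glycinergic neurons, against 1.59% and 1.89% of red blood cell barcodes without a pan-neuronal gene, at median depths of 3242 and 4586 UMIs.

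The cells carried the markers of their label. *elavl4*, an RNA-binding protein of neurons, was detected in 98.4% and *snap25a*, a synaptic vesicle fusion protein, in 87.4% of glycinergic neurons, both genes that the rule reads. Their number was 390 in gSema4abR1, 389 in gSema4abR2 and 400 in gControl, with median depths of 3242.5, 2775 and 3597.5 UMIs and totals of 2045709, 1955550 and 2066745 UMIs. No glycinergic barcode occurred in more than 1 library. *slc6a5* itself reached 1514, 1685 and 1951 CPM in the same order. The median cell held 4, 3 and 4 *slc6a5* UMIs, and 93, 97 and 126 cells held 10 or more.

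**Figure D1:**
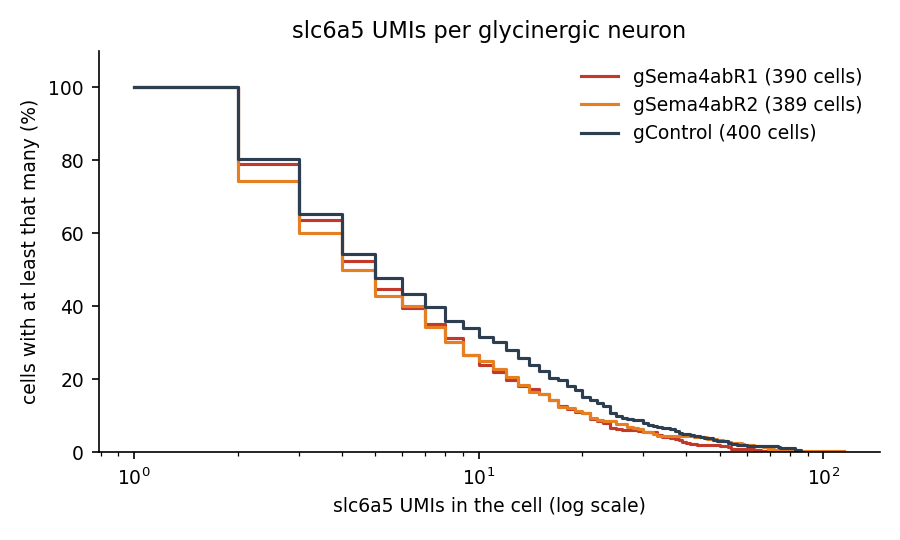
Share of glycinergic neurons (percent, vertical axis) with at least a given number of *slc6a5* UMIs (horizontal log axis), 1 line each for gSema4abR1, gSema4abR2 and gControl. At 10 UMIs the lines stand at 23.8%, 24.9% and 31.5%.

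At the lower edge of the rule, 82, 100 and 79 glycinergic neurons of gSema4abR1, gSema4abR2 and gControl held a single *slc6a5* UMI. Free RNA in the droplets sets the background for such cells: 1.52%, 1.06% and 0.833% of red blood cell barcodes carried *slc6a5*, at median depths of 4629, 5516 and 3999.5 UMIs. Among all kept barcodes without a pan-neuronal gene the shares were higher, at 2.18%, 2.47% and 2.85%, with median depths of 7232.5, 7346 and 8408.5 UMIs. Just inside the neuronal threshold, 28, 45 and 45 cells had exactly 3 pan-neuronal genes, with median *slc6a5* UMIs of 3, 2 and 2. Just outside it, 31, 38 and 42 barcodes with *slc6a5* had 2 pan-neuronal genes and no excluded gene, with median *slc6a5* UMIs of 2, 1.5 and 1. A further 113, 129 and 94 gated neurons carried *slc6a5* together with an excluded gene and were left out. They were deeper than the glycinergic neurons, with medians of 9967, 11489 and 9588.5 UMIs. In the comparisons below they count among the other gated neurons, although they carry *slc6a5*.

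Some glycinergic barcodes also carried RNA of other cells. In 21, 43 and 34 of them in gSema4abR1, gSema4abR2 and gControl, more than 2% of UMIs came from marker lists of other cell types, and these barcodes, called mixed below, held 11.4%, 18.7% and 21.8% of all UMIs. Over all glycinergic neurons, red blood cell genes summed to 10677.5, 26325 and 6463 CPM, epidermal genes to 2425, 2483 and 11192.5 CPM and muscle genes to 974, 1121 and 242 CPM. No gene of the 10 marker lists was at 0 in any library. Without the mixed barcodes the red blood cell genes summed to 1222, 1069 and 687 CPM and the epidermal genes to 719, 975 and 390.3 CPM. The same lists chose the mixed barcodes, so lower sums without them were fixed by that choice. Results between conditions are therefore also given without the mixed barcodes, a choice made after the values were seen.

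Glycinergic neurons made up a similar share of the cells in every library. They were 2.86% of kept barcodes in gSema4abR1 (2.58 to 3.15), 2.89% in gSema4abR2 (2.61 to 3.18) and 2.89% in gControl (2.62 to 3.18). Of gated neurons they were 21.8%, 22.1% and 22.3% in the same order. The log2 ratio of the gSema4ab share to the gControl share was -0.01, with an interval from -0.19 to 0.17. Asking for 2 or more *slc6a5* UMIs gave 2.26%, 2.14% and 2.32% of kept barcodes.

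Most glycinergic neurons carried the transporter that also loads GABA. *slc32a1*, the vesicular transporter for glycine and GABA, was found in 68.3% of glycinergic neurons (65.5 to 70.9), and in 72.8%, 63.0% and 69% of those in gSema4abR1, gSema4abR2 and gControl. GABAergic neurons without *slc6a5* (gated neurons with *gad1b* or *gad2* and no excluded gene) had it in 64.0%, glutamatergic neurons in 8.80%, neurons with *chata* or *mnx1* in 5.56%, and epidermal barcodes without a pan-neuronal gene in 0.428%. The median depths of these 5 sets were 3242, 3763, 4154, 5536 and 14971 UMIs. After every cell was thinned to 2000 UMIs and shallower cells were left out, *slc32a1* was in 57.4% of 881 glycinergic, 48% of 425 GABAergic, 5.28% of 776 glutamatergic and 3.35% of 507 *chata* or *mnx1* neurons.

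Enzymes of GABA synthesis were found in part of the glycinergic neurons. *gad1b* was detected in 31.1% and *gad2* in 38.8% of them, and *gad1b* or *gad2* in 50.2% (47.3 to 53.1), or 41.7% after thinning. Per library the share with either enzyme was 49.2%, 49.9% and 51.5% in gSema4abR1, gSema4abR2 and gControl, with overlapping intervals. Glutamatergic neurons had either gene in 9.65% and epidermal barcodes in 1.03%. *gad1a*, a further glutamate decarboxylase gene, was rarer, in 8.23% of glycinergic neurons against 0.599% of epidermal barcodes.

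*slc18a3a*, the vesicular acetylcholine transporter, was in 1.1026% and *slc5a7a*, the choline transporter, in 0.594% of glycinergic neurons, against 64.2% and 58.3% of *chata* or *mnx1* neurons. The rule left out cells with *chata* or *mnx1*, so it largely fixed these low shares. *th*, the enzyme of dopamine synthesis, was found in 0 of 1179 glycinergic neurons, with an upper bound of 0.312% on the share of cells with a UMI. *slc6a9*, the glycine transporter known from glia, was in 7.55% of glycinergic neurons and, after thinning, in 3.75% of them against 3.48% of glutamatergic neurons and 4.62% of epidermal barcodes. Red blood cell barcodes are no background for it, with 14.8% after thinning.

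**Figure D2:**
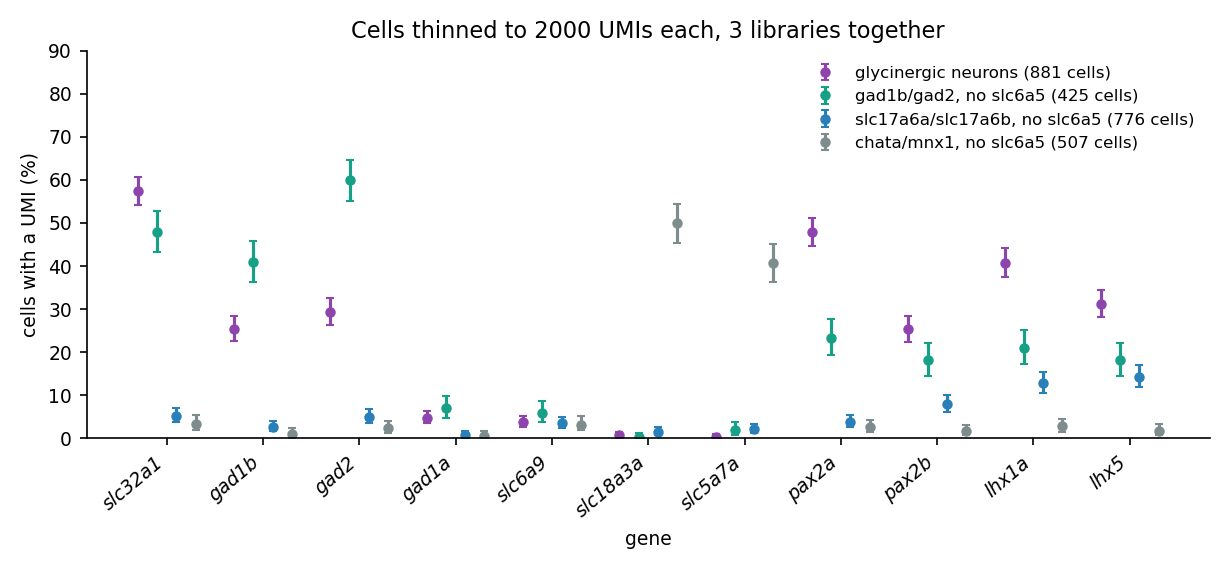
Share of cells (percent, vertical axis) with a UMI of each gene (horizontal axis) after thinning to 2000 UMIs, for glycinergic neurons and 3 other sets of gated neurons, libraries pooled, with exact 95% binomial intervals as bars. *slc32a1* stands at 57.4% in glycinergic neurons, against 5.28% in glutamatergic neurons.

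Transcription factor genes split the glycinergic neurons into classes. V1 genes (*en1a*, *en1b*) were found in 20.8% of them (18.5 to 23.2), V2b and KA genes (*gata2a*, *gata3*, *tal1*, *tal2*) in 20.3% (18.0 to 22.7), dI6 genes (*dmrt3a*, *wt1a*) in 14.0% (12.1 to 16.1) and dorsal genes (*lbx1a*, *lbx1b*, *tfap2b*, *ptf1a*) in 9.33% (7.73 to 11.1). After thinning the shares were 18.2%, 16.7%, 11.0% and 5.45%. Epidermal barcodes carried the V1, dI6 and dorsal genes in 1.68%, 0.770% and 0.542%. They are no background for the V2b and KA list, since 46.3% of epidermal and 42.3% of red blood cell barcodes carried it. Glutamatergic neurons had that list in 6.79%.

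The class shares overlapped between the libraries. V1 genes were in 22.3%, 19.8% and 20.2% of glycinergic neurons of gSema4abR1, gSema4abR2 and gControl, and dI6 genes in 12.8%, 14.7% and 14.5%. V2b and KA genes were in 22.6%, 19.0% and 19.2%, and dorsal genes in 8.97%, 10.0% and 9%. The intervals of the 3 libraries overlapped for each class, at full depth and after thinning, where V1 genes stood at 18.0%, 20.2% and 16.6% and V2b and KA genes at 17.3%, 18.0% and 15.1%.

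**Figure D3:**
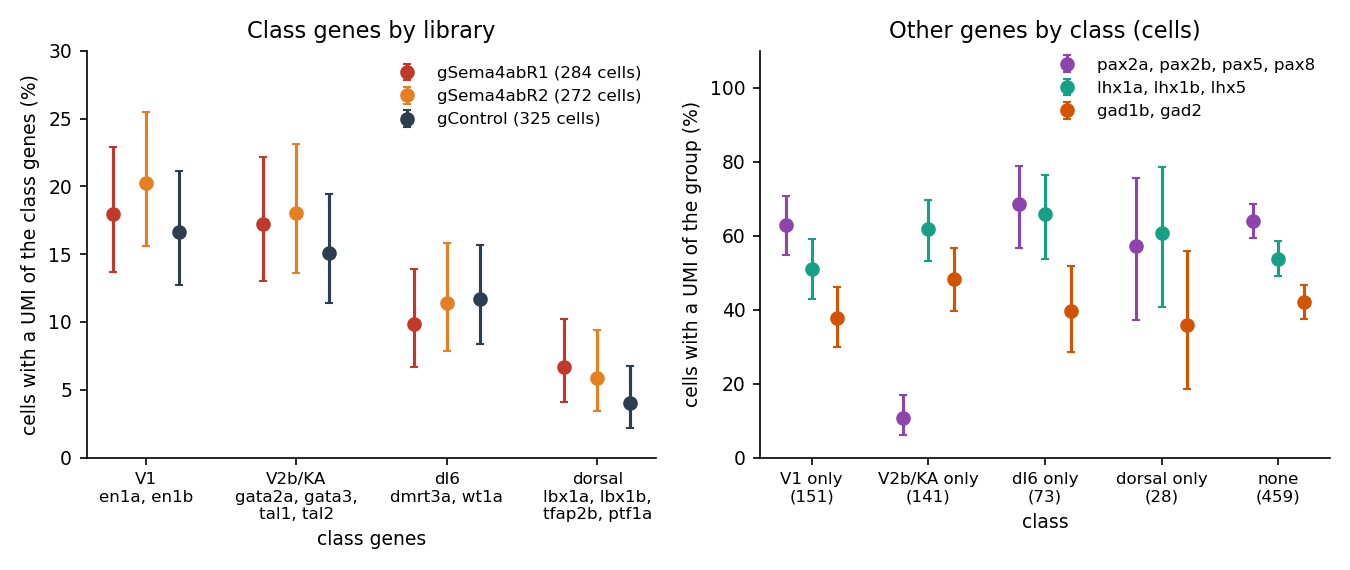
Left, share of glycinergic neurons (percent) with a UMI of each class list (horizontal axis) in gSema4abR1, gSema4abR2 and gControl; right, share of the cells of each class (horizontal axis, libraries pooled) with a UMI of 3 other gene groups, both thinned to 2000 UMIs with exact 95% binomial intervals. On the right the V2b and KA cells stand apart for the pax genes, at 10.6% against 57.1% to 68.5% in the other classes.

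Genes of 1 class only were carried by 207 glycinergic neurons for V1, 201 for V2b and KA, 92 for dI6 and 48 for dorsal, while 8.65% of cells carried genes of several classes and 44.9% of none. Cells with several classes were deep (median 6394 UMIs) and those with none shallow (median 2565 UMIs), and after thinning 3.29% carried genes of several classes and 52.1% of none. V1 genes met V2b and KA genes in 19 cells. dI6 and dorsal genes met in 51 cells, which was 30.9% of the dI6 and 46.4% of the dorsal cells, and in 17 cells after thinning (17.5% and 35.4%). The dorsal list, which holds *lbx1a* and *lbx1b*, therefore does not fully separate dorsal from dI6 cells.

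Paired box factors set the V2b and KA cells apart. *pax2a*, *pax2b*, *pax5* or *pax8*, factors of inhibitory spinal neurons, were found in 16.4% of V2b and KA cells (11.6 to 22.3). They were in 78.3% of V1, 79.3% of dI6 and 75% of dorsal cells, and in 73.0% of cells without a class gene. The LIM factor genes *lhx1a*, *lhx1b* and *lhx5* showed no such gap, with 74.6% of V2b and KA cells against 64.3%, 77.2%, 79.2% and 64.3% in the same order. Nor did *gad1b* or *gad2*, with 54.7% of V2b and KA cells against 51.7%, 43.5%, 56.2% and 46.3%.

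Few glycinergic neurons carried effector genes of KA neurons. *pkd2l1*, a channel of these cells, was in 0.509% and the somatostatin gene *sst1.1* in 0.254% of glycinergic neurons, against 10.4% and 9.25% of GABAergic neurons without *slc6a5*. Any gene of the KA effector list was found in 12 glycinergic neurons, while 1.06% of epidermal barcodes carried one.

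Genes outside the class lists also differed between classes. Cells with genes of 1 class only were set against all other glycinergic neurons of the same library, and the genes named here were chosen after their values were seen. The counts below also include genes of the class lists, whose direction the split itself fixed. Among the higher genes these were *en1b* in V1 cells and *gata2a*, *gata3* and *tal1* in V2b and KA cells. They were *dmrt3a* and *wt1a* in dI6 cells and *lbx1a* in dorsal cells. *en1b*, absent by the split, counts among the lower genes of V2b and KA cells, dI6 cells and cells without a class gene. In V1 cells 1.08% of 1756 genes were at least 2-fold higher in all 3 libraries and 1.03% at least 2-fold lower. Of these, 11 of 19 higher and 6 of 18 lower genes were neuron-enriched (at least 2-fold the CPM of barcodes without a pan-neuronal gene), and the others included genes known from other cells, such as the collagen gene *col6a3* among the higher and the keratin gene *krt91* among the lower. *foxd3*, a forkhead factor known from V1 neurons, had 293, 230.3 and 210.0 CPM in V1 cells of gSema4abR1, gSema4abR2 and gControl, against 44.3, 53.6 and 36.7 CPM in the other glycinergic neurons, and was found in 49.8% of V1 cells and 9.67% of the others. The nuclear receptor gene *nr5a2* had 266, 247 and 426 CPM against 34.1, 25.2 and 78.6 CPM, and *sema5a*, a semaphorin gene, 242, 230.3 and 367 CPM against 80.8, 75.6 and 138 CPM. For these genes every V1 value lay above every value of the other cells, which their choice among genes at least 2-fold higher in all 3 libraries favored. The plexin gene *plxna4* was lower in V1 cells, with 141, 152 and 259 CPM against 337, 354 and 525 CPM.

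In V2b and KA cells 1.66% of 1743 genes were at least 2-fold higher in 3 libraries and 1.2% at least 2-fold lower, of which 21 of 29 and 13 of 21 were neuron-enriched. *zfpm1*, a Gata cofactor gene, had 205, 149.6 and 242 CPM in V2b and KA cells of gSema4abR1, gSema4abR2 and gControl, against 23.0, 41.2 and 24.3 CPM in other glycinergic neurons. *nxph1*, a neurexin ligand, was in 72.6% of these cells against 30.9%, and *agrn*, the proteoglycan agrin, in 74.6% against 28.2%. *pax6a*, a paired box factor outside the group above, had 508, 404 and 332 CPM against 34.5, 43.7 and 14.0 CPM. *mab21l2* was lower, in 27.9% of V2b and KA cells against 65.1% of other glycinergic neurons.

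In dI6 cells 0.444% of 1801 genes were at least 2-fold higher and 0.944% lower, of which 6 of 8 and 9 of 17 were neuron-enriched. *khdrbs2*, an RNA-binding protein gene, had 233, 346 and 486 CPM in dI6 cells of gSema4abR1, gSema4abR2 and gControl, against 96.6, 100.5 and 153 CPM in the others. *slc6a1b*, a GABA reuptake transporter, had 141, 76.1 and 110.02 CPM against 333, 339.6 and 390.2 CPM. *nxph1*, high in V2b and KA cells, was low in dI6 cells at 49.9, 111 and 69.5 CPM against 300.2, 273 and 409.7 CPM. A single cell held 25.5% of the *slc6a1b* and 32.4% of the *nxph1* UMIs of dI6 cells.

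Dorsal cells had 1.05% of 1811 genes at least 2-fold higher and 1.82% lower, but neuron-enriched were only 10 of 19 of the higher and 8 of 33 of the lower. The lower included 8 globin features, collagen genes and *lyz*, and the higher included *spi1b*, *fcer1gl* and *cyba*, known from immune cells. *rasgrf2b*, a neuron-enriched gene of a Ras exchange factor, had 213, 179.9 and 305 CPM in dorsal cells of gSema4abR1, gSema4abR2 and gControl, against 21.1, 24.956 and 64.1 CPM in the others. Among cells without a class gene, 0.451% of 1774 genes were higher and 0.282% lower, of which 7 of 8 and 2 of 5 were neuron-enriched. The homeobox gene *otpa* had 1067, 1017 and 553 CPM in these cells of gSema4abR1, gSema4abR2 and gControl, against 87.8, 201 and 126 CPM in the rest, and was detected in 37.6% of them against 12.2%. *bhlhe22*, a factor gene of spinal interneurons, had 405, 478 and 623 CPM against 122, 170.3 and 179 CPM.

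Glycinergic neurons were next set against all other gated neurons of the same library, for 3763 genes that averaged 50 CPM or more and held 20 or more UMIs. Both sets share droplets, run and background, and the values are a description. The other gated neurons were not limited to spinal neurons: 1777 of them fell outside the sets named above, and enteric neurons were not removed. Both of the 2 enteric marker genes measured were at least 2-fold lower in glycinergic neurons in 3 libraries (median log2 ratio -3.42). Of the 3763 genes, 36.7% were higher and 35.7% lower in all 3 libraries, 2.31% at least 2-fold higher and 2.02% at least 2-fold lower. The median log2 ratio of all genes was -0.005. The 10 genes farthest above were *nkx1.2lb*, *cacna2d3*, *slc30a2*, *en1b*, *pvalb6*, *pax2a*, *esrrb*, *tns1a*, *znf385c* and *bhlhe22*. *nkx1.2lb*, a homeobox gene, had 95.8, 103 and 119.5 CPM in glycinergic neurons of gSema4abR1, gSema4abR2 and gControl, against 10.4, 11.5 and 9.58 CPM in other gated neurons. *cacna2d3*, a calcium channel subunit, had 312, 377 and 582 CPM against 43.7, 48.8 and 54.9 CPM, and *slc30a2*, a zinc transporter, 191, 176 and 252 CPM against 24.9, 24.8 and 27.9 CPM. In each of these genes the lowest glycinergic value lay above the highest value of the other neurons. Their choice by the smallest ratio over 3 libraries favored this, and the share of all genes without overlap was not counted.

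Genes of inhibitory transmission were higher, a direction that the rule largely fixed. It leaves out cells with *slc17a6a*, *slc17a6b*, *chata* or *mnx1*. The other gated neurons held 943 glutamatergic and 593 *chata* or *mnx1* neurons, beside 519 GABAergic neurons without *slc6a5*. They also held the 336 neurons with *slc6a5* and an excluded gene. Of the 9 genes of the glycine and GABA handling list 5 passed the filter, and all 5 were higher in 3 libraries, with a median log2 ratio of 1.78. *slc32a1* had 446, 397 and 466 CPM in glycinergic neurons of gSema4abR1, gSema4abR2 and gControl, against 91.1, 105 and 81.1 CPM in other gated neurons. *slc6a1b* had 322, 320.1 and 367 CPM against 90.5, 132 and 78.5 CPM. *slc12a5b*, a potassium chloride cotransporter that keeps chloride low so that glycine and GABA inhibit, had 158, 160.1 and 223 CPM against 58.7, 71.7 and 82.8 CPM, and all 3 chloride transporter genes measured were higher in 3 libraries.

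Receptor genes were higher too. The glycine receptor subunit *glra1* had 393, 401 and 609 CPM in glycinergic neurons of gSema4abR1, gSema4abR2 and gControl, against 207, 246 and 300.4 CPM in other gated neurons. All 7 GABA receptor genes measured were higher in 3 libraries (median 0.81). Of 12 glutamate receptor genes 11 were higher and 1 lower (median 0.99). *gria3a*, an AMPA receptor subunit, had 161, 152 and 207 CPM against 57.6, 60.1 and 75.2 CPM.

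The transcription factor genes shared by inhibitory classes were at least 2-fold higher in 3 libraries for the 4 measured, *pax2a*, *pax2b*, *lhx1a* and *lhx5*. By leaving out glutamatergic and *chata* or *mnx1* neurons, the rule favors this direction. *pax2a* had 537, 633 and 700.1 CPM in glycinergic neurons of gSema4abR1, gSema4abR2 and gControl, against 108.98, 125 and 98.5 CPM in other gated neurons. Of 16 subtype and temporal factors 13 were higher and 1 lower (median 0.80). Among calcium buffers, *pvalb6*, a parvalbumin, had 297, 339 and 545 CPM against 56.3, 58.0 and 91.7 CPM, and *calb2b*, a calretinin, 198, 189 and 370.1 CPM against 51.7, 48.3 and 61.9 CPM.

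Features of mature neurons were mostly higher and those of immature neurons mostly lower in glycinergic neurons. The rule asks for *slc6a5*, a gene of transmitter-releasing neurons, so it may favor these directions. Of the other gated neurons, 1777 fell outside the sets named by transmitter genes. How far this choice set the values was not tested. Of 27 mature neuron features 23 were higher and 2 lower in 3 libraries (median 0.83), among them *nrxn3a*, a presynaptic adhesion gene, with 1734, 1710 and 2245 CPM in glycinergic neurons of gSema4abR1, gSema4abR2 and gControl, against 573, 678 and 604 CPM in other gated neurons. Of 11 immature neuron features none was higher and 9 were lower (median -0.90). *insm1b*, a factor of newborn neurons, had 18.1, 17.9 and 12.6 CPM against 101.99, 88.2 and 120.4 CPM. *tubb5*, a tubulin, had 336, 201 and 172 CPM against 790.3, 693 and 607 CPM.

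Genes of axon growth and injury were lower, 17 of 21 in 3 libraries with 1 higher (median -0.62). The rule may favor this direction as well, which was not tested. *gap43*, the growth cone protein, had 793, 491 and 356 CPM in glycinergic neurons of gSema4abR1, gSema4abR2 and gControl, against 1818, 1787 and 1366 CPM in other gated neurons. *atf3*, a stress factor induced in injured neurons, had 403, 272 and 209.5 CPM against 811, 889.8 and 704 CPM, and *jun*, a partner of such factors, 645, 437 and 479 CPM against 1123, 1137 and 885 CPM. Every glycinergic value of these 3 genes, picked from the list of 21, lay below every value of the other neurons. The share of all genes without overlap was not counted.

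The 10 genes farthest below were *slc18a3a*, *vip*, *tac3a*, *vipb*, *adcyap1b*, *etv1*, *alcama*, *scn1laa*, *insm1b* and *ebf1b*. The peptide gene *vipb* had 23.0, 163 and 133 CPM in glycinergic neurons of gSema4abR1, gSema4abR2 and gControl, against 1691, 1781 and 1432 CPM in other gated neurons. *adcyap1b*, the gene of the peptide PACAP, had 83.1, 49.6 and 54.7 CPM against 579, 549.8 and 520.3 CPM, and the sodium channel gene *scn1laa* 16.1, 19.4 and 8.23 CPM against 107, 101 and 149 CPM. *slc18a3a* is coexpressed with *chata*, which the rule excludes. Enteric neurons were not removed from the other gated neurons, and their part in these values was not tested.

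**Figure D4:**
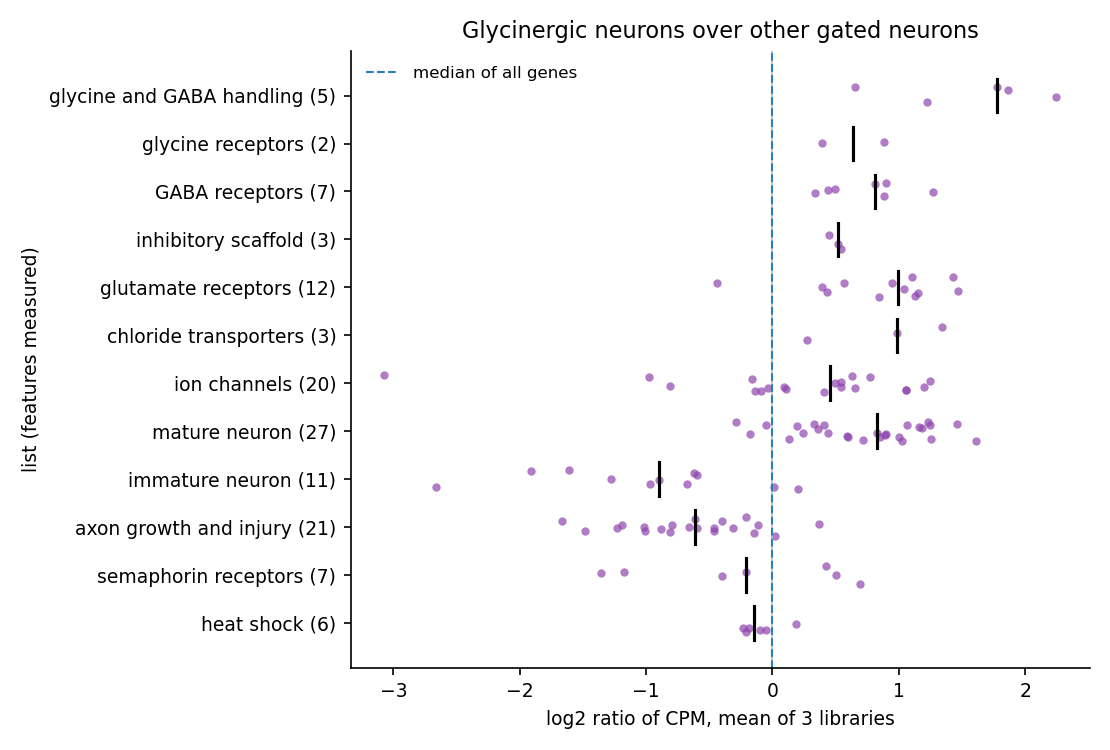
Log2 ratio of CPM in glycinergic neurons to CPM in other gated neurons, mean of 3 libraries (horizontal axis), for each measured feature (point) of 12 gene lists (rows), with list medians as black bars and the median of all genes as a dashed line. Handling genes center at 1.78, a direction that the rule favors, and immature neuron genes at -0.90, a direction that it may favor.

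Between conditions, markers of other cell types differed most: list medians of the log2 ratio were -2.24 for epidermal, 2.11 for muscle and 1.81 for red blood cell genes, and 1.09, 0.98 and 0.76 without the mixed barcodes. The mixed barcodes were chosen by these same lists, so the medians without them are not independent of that choice. The part of these markers in the results below was not tested. Among the other lists with 3 or more measured genes, those of chloride transporters, semaphorin receptors, and GABA and glutamate receptors lay far below the median of all genes, and heat shock genes above it. UMIs were summed over the glycinergic neurons of each library, and 3712 genes passed the filter of 50 CPM and 20 UMIs. Of these, 33.9% were higher and 51.8% lower in both repeats, 1.59% at least 2-fold higher and 1.21% at least 2-fold lower. The middle 50% of genes spanned 0.62 on the log2 scale between conditions and 0.29 between the repeats. Without the mixed barcodes, 31.6% of 3817 genes were higher and 54.4% lower in both repeats, 1.47% at least 2-fold higher and 0.943% lower.

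This tilt moved with the scaling. The median log2 ratio of all genes was -0.11 with CPM and 0.01 with TMM factors, where 42.8% of genes were higher and 41.8% lower in both repeats. It was 0.10 when only neuron-enriched genes made the total. Ribosomal protein genes took 14.4%, 14.3% and 9.94% of the UMIs of glycinergic neurons in gSema4abR1, gSema4abR2 and gControl, and neuron-enriched genes 38.5%, 38.6% and 44.5%. Without mixed barcodes the ribosomal shares were 13.9%, 12.5% and 7.60%. The part of these shares in the ratios was not tested. List medians below are to be read against -0.11 and, for lists made up mostly of neuron-enriched genes, against the median of all neuron-enriched genes, -0.28. Such were all 21 channel, 12 glutamate receptor, 7 GABA receptor, 4 shared inhibitory factor, 3 glycine receptor and 3 inhibitory scaffold genes. So were 27 of 29 mature neuron features, 6 of 7 semaphorin receptor, 4 of 5 handling and 2 of 3 chloride transporter genes. The subtype factor list held 13 of 18, the calcium buffer list 5 of 7 and the axon growth and injury list 11 of 21. Counts of genes lower in both repeats are likewise to be read against 51.8% of all genes and 71.6% of neuron-enriched genes. For counts of genes higher in both repeats these shares were 33.9% and 15.2%.

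Receptor genes for inhibitory transmitters were mostly lower in gSema4ab. *glra1* had 393 and 401 CPM in the gSema4ab repeats against 609 CPM in gControl, a log2 ratio of -0.62 (-0.72 to -0.51). It was found in 63.1% and 66.3% of gSema4ab cells against 77.2% of gControl cells, and after thinning in 48.2% and 49.6% of gSema4ab cells against 64.9% of gControl cells. *glrbb*, the glycine receptor beta subunit, had 117 and 103 CPM against 104 CPM. Of 7 GABA receptor genes 6 were lower in both repeats and none higher, with a median of -0.63 (over all settings run -0.76 to -0.38). *gabbr1b*, a subunit of the metabotropic GABA-B receptor, had 225 and 222 CPM in the gSema4ab repeats against 435 CPM in gControl (-0.96, -1.10 to -0.83).

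Glutamate receptor and channel genes had the same direction. Of 12 glutamate receptor genes 11 were lower in both repeats and none higher (median -0.54, over all settings -0.62 to -0.27). The AMPA receptor gene *gria3b* had 149 and 187 CPM in the gSema4ab repeats against 320.3 CPM in gControl, and *grin2aa*, an NMDA receptor subunit, 161 and 149.8 CPM against 289 CPM. Of 21 ion channel genes 20 were lower in both repeats (median -0.51, over all settings -0.66 to -0.30). The calcium channel gene *cacna1da* had 96.8 and 113 CPM against 194 CPM, and the sodium channel gene *scn1lab* 55.7 and 54.7 CPM against 96.8 CPM. All 3 chloride transporter genes (median -0.67) and all 3 inhibitory scaffold genes (median -0.37) measured were lower in both repeats. So were 71.6% of all neuron-enriched genes, with a median of -0.28.

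Genes of the transmitter machinery had smaller ratios. *slc6a5*, used by the rule, had 1514 and 1685 CPM in the gSema4ab repeats against 1951 CPM in gControl (-0.29, -0.35 to -0.23). *gad1b* had 193 and 161 CPM against 223 CPM (-0.33, -0.50 to -0.16). *slc32a1* had 446 and 397 CPM against 466 CPM (-0.14, -0.26 to -0.03), and its sign turned under the same 3 settings as that of the list below. The median of the 5 handling genes was -0.16, between that of all genes (-0.11) and that of neuron-enriched genes (-0.28). It turned positive with the total of neuron-enriched genes (0.04), with each cell weighted equally (0.03) and without presumed doublets (0.08).

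Semaphorin receptor genes were lower. All 7 measured genes of that list were lower in both repeats (median -0.65, over all settings -0.68 to -0.44). *plxna4* had 301 and 316 CPM in the gSema4ab repeats against 483 CPM in gControl (-0.65, -0.77 to -0.53), *plxna2* 316 and 408 CPM against 593 CPM, and *nrp2b*, a neuropilin, 136 and 116 CPM against 215 CPM. *plxnb1a* and *plxnb1b* did not reach the filter: *plxnb1a* had 45, 53 and 42 UMIs and *plxnb1b* 27, 21 and 29 UMIs in gSema4abR1, gSema4abR2 and gControl.

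Transcription factor genes went both ways. The V1 gene *en1b* was higher, with 218 and 203 CPM in the gSema4ab repeats against 141 CPM in gControl (0.58, 0.38 to 0.78), while it was found in 22.3% and 19.8% of gSema4ab cells against 20.2% of gControl cells. *otpa* was higher with 439.9 and 458 CPM against 276 CPM (0.70, 0.56 to 0.84). All 4 shared inhibitory factors were lower in both repeats (median -0.51, over all settings -0.56 to -0.27), *lhx1a* with 223 and 246 CPM against 339.7 CPM. Of 18 subtype factors 11 were lower and 3 higher in both repeats (median -0.29).

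Of 7 calcium buffer features 5 were lower and 2 higher in both repeats. *calb2b* had 198 and 189 CPM in the gSema4ab repeats against 370.1 CPM in gControl (-0.94, -1.08 to -0.79) and *pvalb6* 297 and 339 CPM against 545 CPM. The list's median of -0.37 was 0.42 over genes of 200 CPM or more. Of 29 mature neuron features 25 were lower and 2 higher in both repeats (median -0.31, over all settings -0.44 to -0.10), which is close to the median of neuron-enriched genes, -0.28.

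Some genes of axon growth and stress were higher in gSema4ab. *gap43* had 793 and 491 CPM in the gSema4ab repeats against 356 CPM in gControl (0.85, 0.74 to 0.98), *atf3* 403 and 272 CPM against 209.5 CPM and *tuba1a*, a tubulin, 360.3 and 304 CPM against 209.5 CPM. gSema4abR1 was the higher repeat for each of them. In the other gated neurons the log2 ratios of *gap43*, *atf3* and *tuba1a* were also above 0, at 0.40, 0.27 and 0.46. The log2 ratios of *gap43* in gSema4abR1 and gSema4abR2 alone, 1.15 and 0.46, both lay outside its interval, which covers counting error only. Over the whole list of 21 genes 10 were higher and 7 lower in both repeats, with a median of 0.19 that was -0.02 without gSema4abR1. The median of this list in the other gated neurons was 0.10. All 6 heat shock genes measured were higher in both repeats (median 0.40, over the settings that measured them 0.25 to 0.71), among them the mitochondrial chaperone genes *hspd1*, with 118 and 105 CPM against 66.8 CPM, and *hspe1*, with 219 and 214 CPM against 135 CPM.

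The 10 genes farthest above and the 10 farthest below under the naming rule included many known from other cells. The higher were *pvalb8*, *irg1l*, *stm*, *col2a1a*, *s100t*, *col9a1b*, *ucp1*, *ckma*, *hist1h4l* and *mbpa*. *pvalb8* had 30.3 and 1668 CPM in the gSema4ab repeats against 10.2 CPM in gControl, and a single cell held 99.1% of its UMIs in gSema4abR2. A single cell likewise held 97.3% of the *s100t* UMIs in gSema4abR2 and 95.3% of the *stm*, 95.6% of the *col9a1b* and 93.0% of the *col2a1a* UMIs in gSema4abR1, and 91.9% of the *apoa1a* UMIs in gControl. The lower were *and3*, *apoa1a*, *krt17*, *frem2a*, *cyt1*, *cyt1l*, *krtt1c19e*, *krt4*, *and1* and *krt5*. The keratin gene *krt4* had 779.7 and 884 CPM in the gSema4ab repeats against 3924 CPM in gControl (-2.24, -2.30 to -2.18), beside the epidermal sums given above. Without mixed barcodes the log2 ratio of *krt4* was 0.96, that of *cyt1* 1.09 and that of *cyt1l* 1.64, so the direction turned. The mixed barcodes were chosen by their UMIs of marker genes, epidermal ones included, so this turn is not independent of that choice.

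Restricted to 1658 neuron-enriched genes, a set defined after the values were seen, 15.2% were higher and 71.6% lower in both repeats, with a median of -0.28, and 0.483% were at least 2-fold higher and 0.362% lower. *znf503*, a zinc finger gene, had 72.8 and 67.0 CPM in the gSema4ab repeats against 174 CPM in gControl (-1.31, -1.55 to -1.09) and was found in 26.2% and 22.1% of gSema4ab cells against 41.5% of gControl cells. *fstl4*, a follistatin-like gene, had 90.9 and 127 CPM against 262 CPM (-1.26, -1.46 to -1.09) and was found in 26.4% and 29.0% of gSema4ab cells against 42% of gControl cells. *tmsb*, a thymosin beta gene, was higher, with 250.3 and 273 CPM against 110.3 CPM (1.24, 1.04 to 1.46). The set also holds genes known from other cells. Its genes at least 2-fold higher included *mbpa*, *mbpb* and *cldnk*, known from oligodendrocytes. A single cell held 51.4% of the *mbpa* and 68.1% of the *cldnk* UMIs in gSema4abR1. They also included *pvalb8* and *s100t*, for which a single cell held 99.1% and 97.3% of the UMIs in gSema4abR2. The genes named in this paragraph were chosen after their values were seen. Without mixed barcodes, 10.3% of 1802 neuron-enriched genes were higher and 78.6% lower in both repeats, 0.222% at least 2-fold higher and 1.33% lower.

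The other gated neurons of the same libraries are given beside the glycinergic neurons, with no test of the difference. Among 3774 genes, 37.7% were higher and 52% lower in both gSema4ab repeats, 0.424% at least 2-fold higher and 0.344% lower. List medians were -0.63 in glycinergic and -0.49 in other neurons for GABA receptors, -0.54 and -0.35 for glutamate receptors, -0.51 and -0.43 for channels, -0.65 and -0.49 for semaphorin receptors and 0.40 and 0.41 for heat shock genes. These 5 lists thus had medians on the same side of 0 in both sets. The medians of all genes were -0.11 in glycinergic and -0.07 in other neurons. Those of neuron-enriched genes were -0.28 and -0.21, so neuron-enriched genes as a whole also lay below 0 in both sets. The mature neuron list stood at -0.31 in glycinergic and -0.08 in other neurons, and the handling list at -0.16 and 0.27. The make-up of the other gated neurons differed between gSema4abR1, gSema4abR2 and gControl. They held 161, 199 and 159 GABAergic neurons without *slc6a5* and 113, 129 and 94 neurons with *slc6a5* and an excluded gene. Glutamatergic neurons numbered 313, 274 and 356, and *chata* or *mnx1* neurons 194, 183 and 216. The part of this mix in the ratios was not tested.

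**Figure D5:**
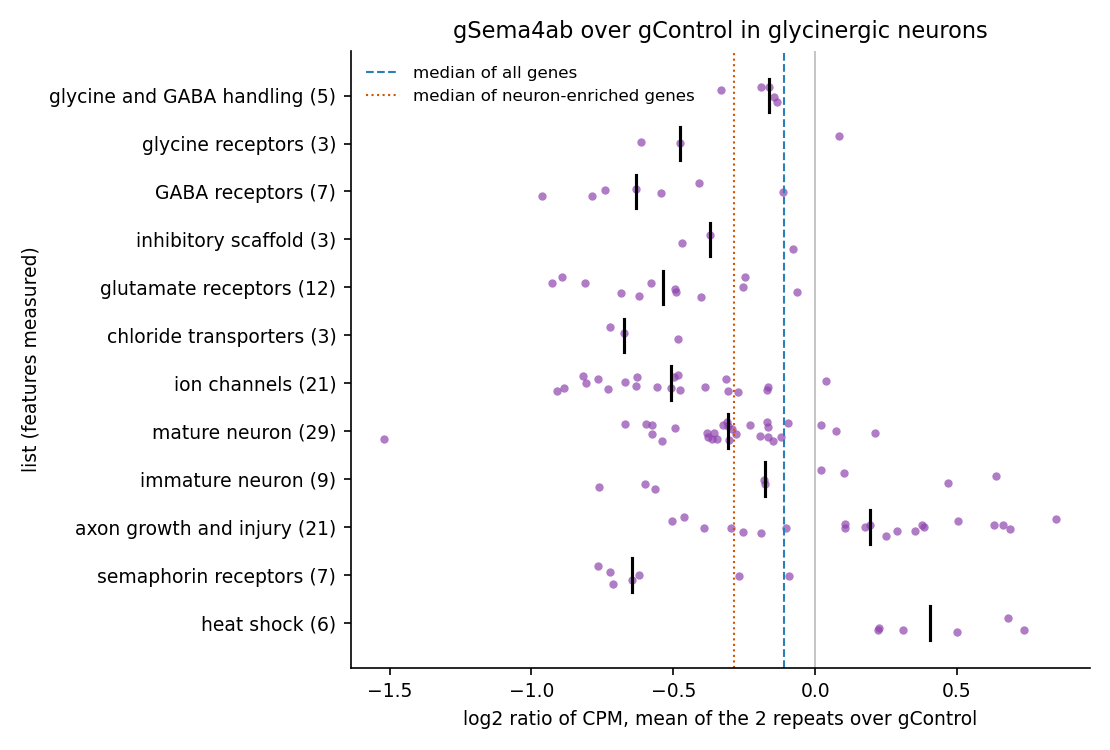
Log2 ratio of CPM in glycinergic neurons, mean of the 2 gSema4ab repeats over gControl (horizontal axis), for each measured feature (point) of 12 gene lists (rows), with list medians as black bars and the medians of all genes (-0.11) and of neuron-enriched genes (-0.28) as dashed and dotted lines. Semaphorin receptors center at -0.65 and heat shock genes at 0.40; the handling median of -0.16 turned positive under 3 settings, and that of axon growth and injury genes negative without gSema4abR1.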

How the data were processed

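Lesion-site cells of gSema4ab and gControl larvae were captured with 10x 3′ chemistry. The deposited matrices hold UMI counts per gene and barcode that the authors made with Cell Ranger 7.1.0 on GRCz11. No further normalization was applied to them before deposit.

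Kept barcodes were those with 200 or more genes, 500 to 50000 UMIs and under 20% mitochondrial UMIs. Total UMIs per library ranged from 139165621 to 152455137. Counts of the chosen cells were summed per library and divided by their total (CPM), and 0.5 UMIs were added before log2 ratios. Intervals were exact Poisson, binomial or conditional binomial intervals at 95%, which cover counting error only. Since gSema4ab had technical repeats of 1 pool and gControl 1 library, each condition counted as 1 sample and no p-value was computed. Features that share a symbol were counted separately in the gene lists. Ratios were tested on simulated counts before use. The simulated counts had Poisson spread only, so they did not cover extra spread between cells, repeats or pools. Doublets were kept, and an alternative removed the barcodes with the highest Scrublet scores, 0.8% of a library per 1000 barcodes. These presumed doublets were 70 of 390, 73 of 389 and 58 of 400 glycinergic neurons in gSema4abR1, gSema4abR2 and gControl. Among all kept barcodes they were 1492 of 13655, 1453 of 13476 and 1533 of 13842.

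The genes named were list genes by role, the 10 highest and 10 lowest genes against other gated neurons by the smallest log2 ratio over 3 libraries with the same sign, and the 10 higher and 10 lower genes between conditions with the interval bound farthest from 0 and the same side in both repeats. Ribosomal, mitochondrial, globin and unnamed features were counted and not named. The cells and lists were chosen with earlier results of these data known. Alternatives were other thresholds, TMM factors, other totals, thinning, doublet removal and leaving out a repeat. Leaving out mixed barcodes, weighting cells equally and the use of neuron-enriched genes were chosen after seeing the data. Genes were compared between classes from 100 CPM. Tools were Python 3.11.15, numpy 2.4.6, scipy 1.17.1, pandas 2.3.3, scanpy 1.11.5, matplotlib 3.10.9 and edgeR 4.0.16 in R 4.3.3. Gene positions were not used here.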

Additional observations from a re-analysis of the deposited data

Results flagged for a closer look

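Only the named genes outside the rule were searched here, and the share over all measured genes was not counted. In 3 of these named genes the glycinergic neurons and the other gated neurons lay on opposite sides of gControl in both gSema4ab repeats. The differences between the 2 sets of neurons were not tested. The make-up of the other gated neurons differed between libraries, as given above, and its part in these ratios was not tested either. Nor did the opposite sides hold under all settings: without presumed doublets the ratio in glycinergic neurons was positive for all 3 genes (0.14 for *slc32a1*, 0.082 for *slc6a1b* and 0.022 for *pax2a*), and each turned under at least 1 more setting. *slc32a1* had a log2 ratio of gSema4ab to gControl of -0.14 in glycinergic neurons (446 and 397 CPM against 466 CPM) and 0.27 in other neurons (91.1 and 105 CPM against 81.1 CPM). *slc6a1b* had -0.19 in glycinergic neurons (322 and 320.1 CPM against 367 CPM) and 0.50 in other neurons (90.5 and 132 CPM against 78.5 CPM). *pax2a* had -0.26 in glycinergic neurons (537 and 633 CPM against 700.1 CPM) and 0.25 in other neurons (108.98 and 125 CPM against 98.5 CPM).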

How the results depend on the processing

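Thinning to 2000 UMIs gave shares of 18.2% for V1, 16.7% for V2b and KA, 11.0% for dI6 and 5.45% for dorsal genes and 41.7% for *gad1b* or *gad2*, and removing presumed doublets gave 18.0% for V2b and KA genes. Against other neurons, genes at least 2-fold higher (87) numbered 25 at 200 CPM, 650 with no filter beyond 1 UMI, 144 without presumed doublets and 140 without mixed barcodes, and genes at least 2-fold lower (76) numbered 12 at 200 CPM and 425 with no filter. Between conditions, genes at least 2-fold higher in both repeats (59) numbered 19 at 200 CPM, 1715 with no filter, 39 without presumed doublets, 38 with each cell weighted equally, 95 with the total of neuron-enriched genes, 8 among neuron-enriched genes and 4 among those without mixed barcodes. Those at least 2-fold lower (45) numbered 10 at 200 CPM, 2199 with no filter, 6 among neuron-enriched genes and 24 among those without mixed barcodes. Leaving out 1 repeat, so that 1 repeat alone had to pass, gave 90 to 94 higher and 101 to 102 lower genes.

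The log2 ratio turned for *cyt1* (1.09), *cyt1l* (1.64) and *krt4* (0.96) without mixed barcodes, which were chosen by epidermal and other marker genes. It turned for *slc32a1* without presumed doublets (0.14), with each cell weighted equally (0.15) and with the total of neuron-enriched genes (0.061). It turned for *slc6a1b* without presumed doublets (0.082) and with the total of neuron-enriched genes (0.013), and for *pax2a* without presumed doublets (0.022) and with each cell weighted equally (0.00402). The causes were not tested, other than that a stricter filter tests fewer genes and a looser one more. Among single genes and lists, 708 further values moved by less than their error, 179 by more and 10 turned. No paired analysis was possible because each condition had 1 pool of larvae and the labels give no pairing, and no test was run.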
